A study of Mus musculus with 12 samples.

Results

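MYC and the proteins that build ribosomes were followed as a set of 35 genes in mouse follicular B cells, with and without the receptor GPR174, before and after 4 h of culture. The members were taken by gene symbol, and all 35 had a row in both deposited count tables, among the 12837 genes that the tables share. They comprise Myc itself, the metabolic gene Odc1, 5 nucleolar chaperones and nucleolar regulators, 3 subunits of RNA polymerase I, 6 proteins of small nucleolar ribonucleoproteins (snoRNPs), 10 assembly factors of the small ribosomal subunit and 9 of the large subunit. The rule takes members by name and uses no measured value, but the list was drawn up with earlier results of these data known.

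RNA sequencing was done on follicular B cells, sorted from spleen as CD21/35- CD23+ and taken from 3 mice of each genotype. The WT genotype is given as Gpr174+/Y and the KO genotype as Gpr174-/Y, so all mice were males with a single copy of this X-linked gene. In KO mice the sequence of tdTomato, a red fluorescent protein, stands in the Gpr174 locus where the receptor was encoded, so KO cells carry a reporter that WT cells lack. Cells were taken straight after the sort (0 h) or kept for 4 h in complete RPMI with serum, with no stimulus added, which gives 4 groups of 3 libraries named by genotype and hours. GPR174 is a Gs-coupled receptor of lymphocytes, and the study asked which B cell transcripts depend on it.

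Ribosome production is among the largest biosynthetic tasks of a growing cell. RNA polymerase I transcribes the ribosomal RNA precursor in the nucleolus, snoRNPs modify and help to fold it, and a series of assembly factors cut it and load ribosomal proteins until the small and large subunits leave the nucleus. MYC is a transcription factor that raises many of these genes together with genes of polyamine and nucleotide synthesis, and in B cells it is low at rest and climbs after antigen receptor, Toll-like receptor or T cell signals.

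The libraries held 6098941 to 11618787 counts. Cd79a and Cd79b, the signalling chains of the B cell antigen receptor, averaged 716 to 857 and 1446 to 1813 CPM over the 4 groups (a library-size-scaled count, here after TMM scaling). Ms4a1, Cd22 and Pax5, other B cell genes, fell from means of 979.9, 1681 and 368 to 383, 514 and 217 CPM in WT and from 863, 1744 and 341 to 578, 1051 and 293 CPM in KO. In every library 8 T cell markers summed to between 18.7 and 36.0 CPM. The 9 macrophage and monocyte markers summed to 58.9 to 73.9 CPM in WT 0 h and 63.3 to 72.6 CPM in KO 0 h, and to 20.3 to 30.03 CPM in WT 4 h and 17.6 to 37.7 CPM in KO 4 h, with 3 of 4 tested lowered by culture in each genotype. Marginal zone markers, of which 5 of 6 had a row, summed to 1190.4 to 1271 CPM in WT 0 h, 1038 to 1215 CPM in KO 0 h, 233 to 277 CPM in WT 4 h and 368 to 417 CPM in KO 4 h. Most of this sum was Cr2, with means of 1070, 961, 159 and 300 CPM in the same order. At 0 h Dtx1 averaged 106 CPM in WT and 114 CPM in KO, Cd1d1 34.4 and 32.6 CPM, and S1pr3 10.1 and 9.67 CPM. The sum is therefore not a measure of the share of marginal zone cells, which was not estimated. In each genotype 4 of the 5 markers were lowered. The remaining marker, Cd9, was raised in both, from means of 1.91 to 3.79 CPM in WT and 2.20 to 4.43 CPM in KO. The part of these shifts in the culture changes of the members was not tested. WT 4 h replicate 1 differed most from the libraries of its group, by 9.32 and 7.82 chi-square units per degree of freedom, against 1.95 to 6.60 for all other pairs. Of 5 follicular B cell markers 4 had a row in both tables and Ighd did not. Gpr174 was at 149.6, 149.5 and 157 CPM in WT 0 h, 73.4, 76.7 and 74.0 CPM in KO 0 h, 163, 169 and 153 CPM in WT 4 h and 118, 106 and 105 CPM in KO 4 h, so every KO library lay below every WT library of its time. The remaining counts are not separated into coding and untranslated sequence. Markers of dividing cells differed between the groups. Their 12 genes summed to 161 to 256 CPM in WT 0 h, 406 to 574 CPM in KO 0 h, 132 to 192 CPM in WT 4 h and 184 to 333 CPM in KO 4 h. At 0 h 7 of the 12 were called higher in KO, and their part in the values below was not tested. In bulk RNA, fewer cells with a transcript and less of it per cell cannot be told apart.

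Promoters of the members were read first, because MYC binds the E-box CACGTG and Gs-coupled receptors raise cAMP, whose factor CREB binds the cAMP response element (CRE) TGACGTCA. RefSeq (GRCm38.p6) gave a promoter for 29 of the 35 members, and Myc, Npm1, Fbl, Rrp12, Rrs1 and Bop1 had none. In the 250 bases before the gene start, searched on both strands, CACGTG was found in 1 of the 29 (Nop2, 3.45%) and in 6.86% of 27025 genes. TGACGTCA was found in 2 (Noc4l and Ppan, 6.90%, against 1.77% of all genes). Its core TGACG, which every CRE also holds, was found in 13 (44.8%, against 19.8% of all genes), among them Odc1, Ncl, Nop58, Mybbp1a and Wdr43. TATAAA was found in 3 (Dkc1, Pes1 and Ppan, 10.3%, against 14.3%). Matches are letters in a window and were not tested as binding sites. Sequence after the gene start, introns included, was not searched, so motifs there are not counted. The 27025 genes are all those with a RefSeq promoter, whether or not they were counted in these cells. Base composition was not matched, and no enrichment was tested. Shown here are the 250 upstream bases of Ncl, the most abundant member by reads, of Nop2, the only member with the E-box, and of Ppan, which holds a CRE, each 5′ to 3′ on the gene's strand with the motifs in capitals.
Ncl (chr1:86359456-86359705, minus strand, CRE core at -96 and -65): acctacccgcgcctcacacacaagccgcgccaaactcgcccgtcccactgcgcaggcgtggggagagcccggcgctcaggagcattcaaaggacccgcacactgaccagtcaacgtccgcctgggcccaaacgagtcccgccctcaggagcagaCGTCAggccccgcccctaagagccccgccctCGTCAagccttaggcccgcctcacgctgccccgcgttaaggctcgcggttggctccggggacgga
Nop2 (chr6:125131633-125131882, plus strand, E-box at -60 and CRE core at -18): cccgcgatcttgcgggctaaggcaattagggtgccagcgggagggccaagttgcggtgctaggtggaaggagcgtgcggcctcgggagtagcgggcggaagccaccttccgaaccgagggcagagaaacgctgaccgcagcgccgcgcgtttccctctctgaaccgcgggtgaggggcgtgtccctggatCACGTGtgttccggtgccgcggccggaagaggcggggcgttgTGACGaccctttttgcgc
Ppan (chr9:20887925-20888174, plus strand, CRE at -35 and overlapping TATAAA at -99 and -97): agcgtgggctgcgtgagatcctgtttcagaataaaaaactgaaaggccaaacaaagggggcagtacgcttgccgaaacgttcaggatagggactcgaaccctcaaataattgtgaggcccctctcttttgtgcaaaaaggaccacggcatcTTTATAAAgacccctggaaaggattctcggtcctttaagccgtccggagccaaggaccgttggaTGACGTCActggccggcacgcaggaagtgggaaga
The capitals in Ncl and in the second motif of Nop2 mark TGACG or its reverse CGTCA, and positions are counted back from the first transcribed base in RefSeq.

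The set as a whole was transcribed at a similar level in both genotypes and was higher after culture. Summed over the 35 members, WT 0 h libraries held 3309, 3086 and 3206 CPM, KO 0 h libraries 3217, 3116 and 3285 CPM, WT 4 h libraries 4031, 3484 and 3865 CPM, and KO 4 h libraries 3661, 3963 and 3768 CPM. Every 4 h library was above every 0 h library, and the genotypes overlapped at each time. WT 4 h replicate 2 was the lowest and replicate 1 the highest of the 6 cultured libraries. Ncl alone supplied 32.6% to 37.8% of the sum, and without it the group means were 2112 ± 58.5 CPM in WT 0 h, 2145 ± 45.5 CPM in KO 0 h, 2385 ± 165 CPM in WT 4 h and 2396 ± 62.2 CPM in KO 4 h (SD, n = 3). As a mean of log2 CPM, which weighs the members equally, the groups stood at 5.67 ± 0.05, 5.70 ± 0.04, 5.87 ± 0.11 and 5.86 ± 0.04 in the same order (SD, n = 3). No test was made on these sums.

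**Figure D1:**
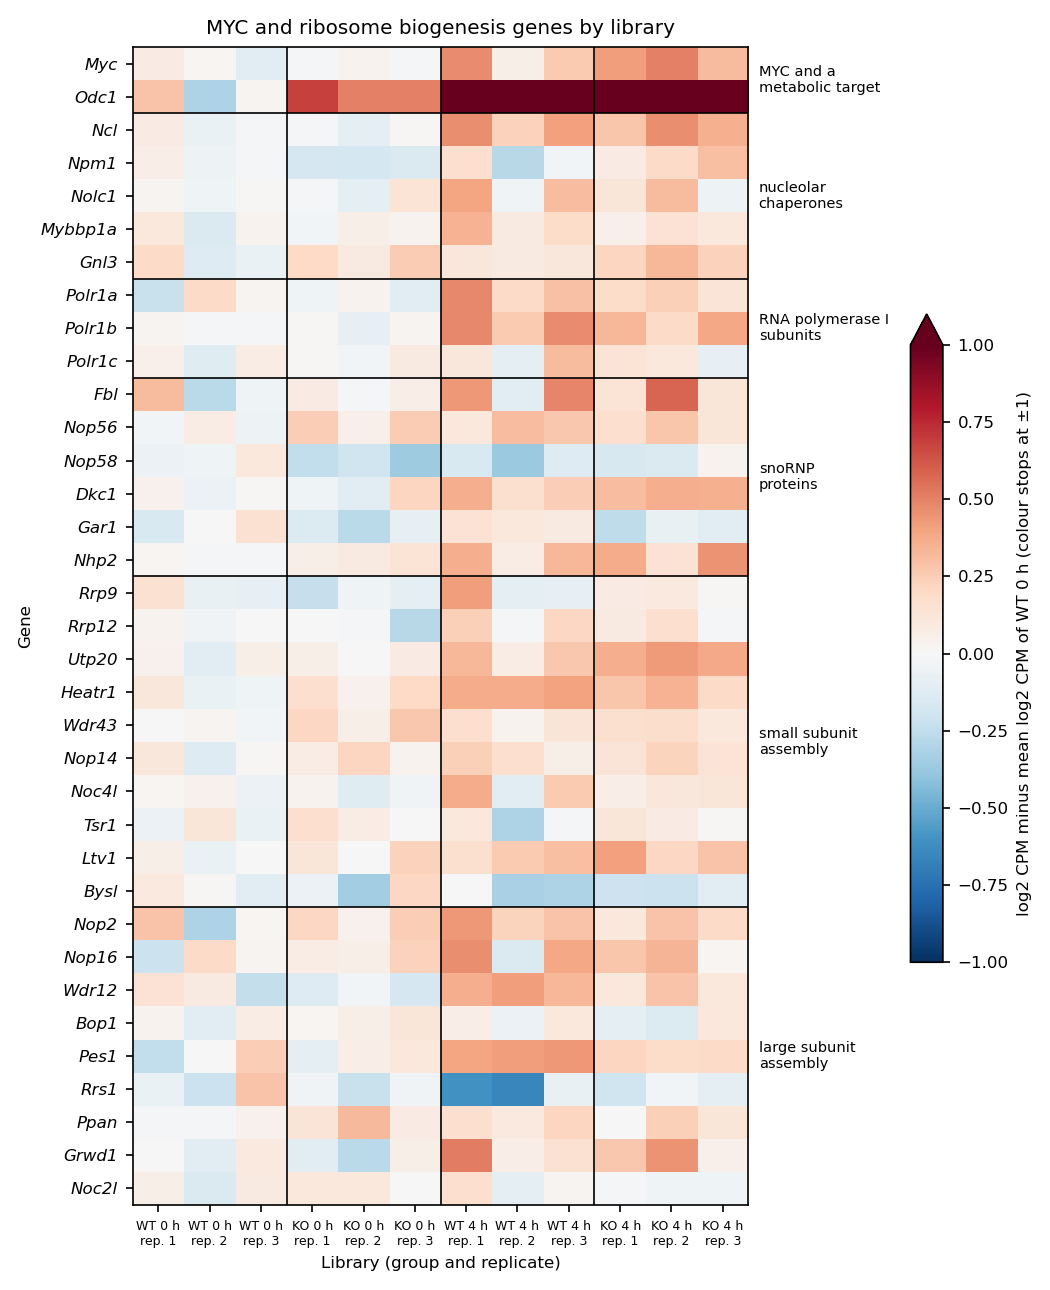
Level of each member (rows, grouped by role) in each library (columns, 3 per group), as log2 CPM minus the mean of the WT 0 h libraries. Red is above and blue below that mean, and the colour stops at a difference of 1, which Odc1 passes in every cultured library. Most rows turn red in the 4 h columns of both genotypes, while Nop58, Bysl and Rrs1 have blue cells there.

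Levels between genes were compared per kilobase of the principal GENCODE transcript (CPM per kb). In WT 0 h Npm1 had the highest value (138 CPM per kb), followed by Ncl (133), Nop58 (72.4), Myc (54.1) and Gar1 (51.4). The lowest were Wdr12 (2.85), Fbl (4.45) and Bysl (5.20). The transcript models used for Ncl and Wdr12 are 8202 and 10012 bases long, and a shorter model would raise both values. Those of Myc and Nop58 are 1365 and 1713 bases long, against 2717 and 10758 bases over all their annotated exons. A longer model would lower both values, so the order of the members depends on the models used. In KO 4 h the leading members were Ncl (171 CPM per kb), Npm1 (157), Myc (72.1), Nop58 (68.1) and Gar1 (46.4).

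Culture of WT cells changed 15 of the 35 members (42.9%), 13 upward and 2 downward, at an adjusted p under 0.05 in edgeR's quasi-likelihood test with Benjamini-Hochberg adjustment over 11572 genes. Among all genes tested the same rule called 33.1%, which is not far from the members' share. The directions were more uneven in the set. Raised members made up 37.1% of the set against 15.1% of all genes, and lowered members 5.71% against 18% of all genes. The median log2 fold change (4 h over 0 h) was 0.23 over the members and 0.00 over all genes, and 30 of 35 members had a value above 0 (50.6% of all genes). The members raised were Odc1, Polr1b, Pes1, Heatr1, Ncl, Wdr12, Polr1a, Myc, Dkc1, Ltv1, Nop56, Utp20 and Mybbp1a, and those lowered were Rrs1 and Nop58. In 14 members the WT 0 h and WT 4 h libraries did not overlap (13 higher at 4 h), against 40.9% of all genes (20% higher and 20.9% lower at 4 h). With library totals in place of TMM scaling 22 members were raised in WT and 0 lowered. That scaling moved the median of all genes to 0.11, and the members' median relative to it was 0.22 under both scalings. Among all genes it changed the shares raised and lowered to 25.9% and 13%.

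In KO cells culture raised 7 members (20.0%) and lowered none, at the same threshold, against 23.3% of all genes called in that contrast, 10.3% raised and 13% lowered. The median log2 fold change was 0.14 over the members and 0.00 over all genes, with 28 of 35 members above 0. Libraries of the 2 times did not overlap in 16 members, 15 of them higher at 4 h, against 41.9% of all genes (20.6% higher and 21.3% lower). Myc, Odc1, Ncl, Polr1b, Dkc1 and Utp20 were called in both genotypes, which is 40.0% of the WT calls and 85.7% of the KO calls. Among all genes 49.3% of the WT calls and 70% of the KO calls were shared, and genes called in both were 16.3% of those tested, against 17.1% of the members. Npm1 was called in KO only, and the test of that difference is given with the gene below. DESeq2 called 14 members in WT (27.8% of all genes) and 6 in KO (20.6%). With library totals only, 14 members were raised in KO and 0 lowered, the median of all genes was 0.09, and the members' median relative to it was 0.14 under both scalings. The shares of all genes raised and lowered were then 18.7% and 9.51%.

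**Figure D2:**
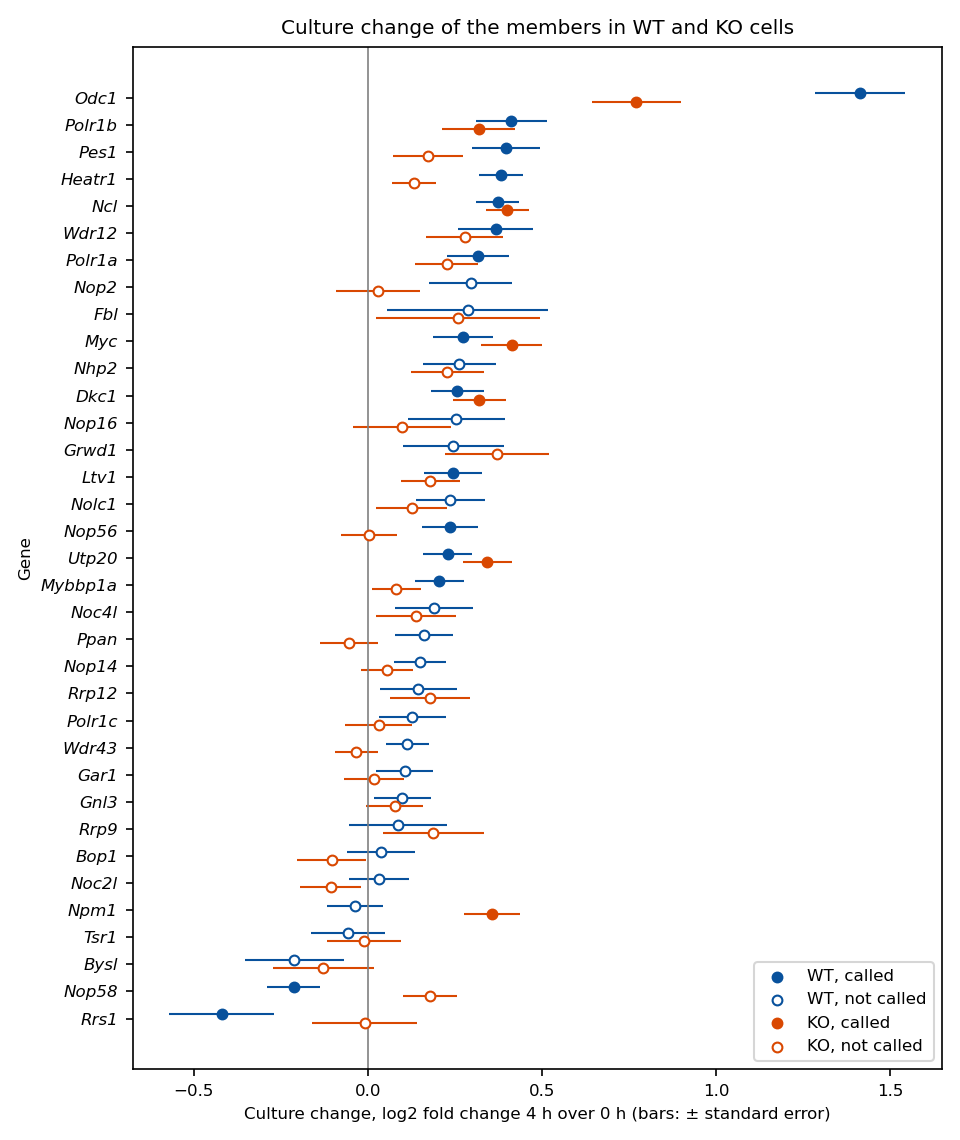
Culture change of the 35 members (rows, ordered by the WT value) as log2 fold change of 4 h over 0 h in WT (blue) and KO (orange). Bars are standard errors, and filled points passed an adjusted p under 0.05. Odc1 stands far to the right in both genotypes, most other points lie between 0 and 0.5, and Npm1, Nop58 and Rrs1 are negative in WT and not in KO, apart from a KO value of Rrs1 just below 0.

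Few members passed the test between genotypes. At 0 h none of the 35 members passed the threshold in edgeR (0.987% of 11345 genes did, 0.502% with more in WT and 0.485% with more in KO), 7 had an unadjusted p under 0.05, and DESeq2 also called none. Log2 fold changes of WT over KO ran from -0.56 (Odc1) to 0.26 (Nop58) with a median of -0.03, and the median standard error was 0.09. In 6 members the genotypes were fully separated by library, 2 higher in WT and 4 higher in KO, against 18.1% of all genes (9.41% and 8.73%). At 4 h 1 member, Gar1, was called and was higher in WT (10.9% of 11123 genes were called, with 5.22% on the WT side and 5.67% on the KO side), and 5 had an unadjusted p under 0.05. Values ran from -0.29 (Rrs1) to 0.25 (Gar1) with a median of 0.04, which was -0.02 without WT 4 h replicate 1 and 0.10 without WT 4 h replicate 2. Non-overlapping libraries were again seen in 6 members, 4 higher in WT and 2 higher in KO, against 27.9% of all genes (14.5% and 13.5%).

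An interaction term, the WT change minus the KO change, tested for a different response to culture in WT and KO. It passed for 3 members, Odc1, Npm1 and Nop58 (8.57%, against 6.39% of all genes). The 1 positive call compares with 2.45% of all genes and the 2 negative calls with 3.94%. The interaction, the culture contrasts and the genotype contrasts use the same libraries and are therefore given side by side and not as separate support.

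Myc encodes the transcription factor at the head of the set (chromosome 15, 61985391 to 61990374, plus strand, mm10). It was counted at 77.9, 75.0 and 68.8 CPM in WT 0 h replicates 1 to 3 and at 73.2, 75.7 and 73.1 CPM in KO 0 h. After culture it stood at 102, 76.8 and 88.6 CPM in WT and 98.7, 105 and 91.7 CPM in KO. All KO 4 h libraries lay above all KO 0 h libraries, whereas WT 4 h replicate 2 fell within the WT 0 h range. Myc rose by a log2 fold change of 0.41 ± 0.09 in KO (edgeR adjusted p = 0.00127) and of 0.27 ± 0.09 in WT (edgeR adjusted p = 0.0191). The WT call was lost without WT 0 h replicate 3, without WT 4 h replicate 1 and in a fit of the WT libraries alone. The genotype difference was -0.01 ± 0.07 at 0 h (95% interval -0.17 to 0.14) and -0.14 ± 0.09 at 4 h (95% interval -0.34 to 0.05), and the interaction was -0.14 ± 0.12 (95% interval -0.40 to 0.11).

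**Figure D3:**
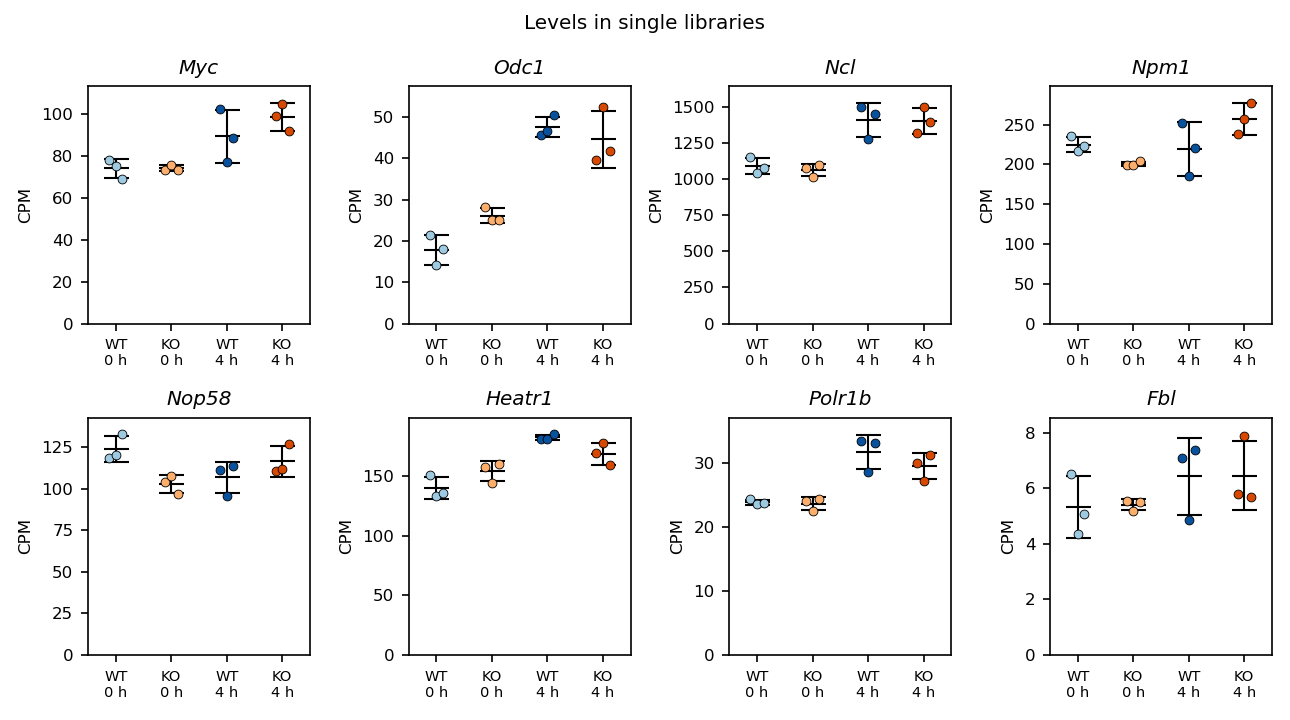
CPM of 8 members in each library (points), with the mean and SD of each group of 3 (bars), on axes that start at 0. Odc1 is clearly higher in both 4 h groups, Ncl and Polr1b are higher in all 4 h libraries, and Nop58 is highest in WT 0 h and lowest in KO 0 h by mean.

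Odc1 encodes ornithine decarboxylase, the rate-limiting enzyme of polyamine synthesis and a textbook MYC target (chromosome 12, 17544794 to 17551505, plus strand). It had the largest culture change of the set. Its level was 21.5, 14.2 and 17.95 CPM in WT 0 h and 45.7, 46.6 and 50.4 CPM in WT 4 h. In KO it was 28.3, 25.0 and 25.0 CPM at 0 h and 39.5, 52.4 and 41.9 CPM at 4 h. The times did not overlap in either genotype, and at 0 h every KO library was above every WT library, whereas at 4 h the genotypes overlapped. Culture raised Odc1 by a log2 fold change of 1.41 ± 0.13 in WT (2.66-fold, edgeR adjusted p = 2.05e-08) and 0.77 ± 0.13 in KO (1.71-fold, edgeR adjusted p = 0.000116). The rise was larger in WT by 0.64 ± 0.18 (edgeR adjusted p = 0.0377). At 0 h the WT over KO value was -0.56 ± 0.15 and missed the threshold (edgeR adjusted p = 0.0886), and it passed at 0.0224 without WT 0 h replicate 1. At 4 h the value was 0.09 ± 0.11 (95% interval -0.13 to 0.32). Reads of Odc1 may be shared with 7 other annotated genes, 5 of them pseudogenes, that match it over at least 200 bases at 95% identity.

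The nucleolar chaperones and regulators comprise Ncl, Npm1, Nolc1, Mybbp1a and Gnl3. Nucleolin (Ncl, chromosome 1, 86344719 to 86359400, minus strand) binds the ribosomal RNA precursor and is among the most abundant nucleolar proteins. It was at 1152, 1040.3 and 1073 CPM in WT 0 h, 1075, 1015 and 1094 CPM in KO 0 h, 1501, 1279 and 1446 CPM in WT 4 h and 1315, 1498 and 1391 CPM in KO 4 h. Every cultured library was above every uncultured one. Ncl rose by 0.37 ± 0.06 in WT (edgeR adjusted p = 7.53e-05) and by 0.40 ± 0.06 in KO (edgeR adjusted p = 5.28e-05). The 95% interval of the interaction was -0.21 to 0.15, and those of the genotype difference were -0.07 to 0.13 at 0 h and -0.14 to 0.16 at 4 h. It was counted at 6855 to 13714 reads per library, the most of any member.

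Nucleophosmin (Npm1, chromosome 11, 33152287 to 33163206, minus strand), a histone chaperone of the nucleolus that also escorts ribosomal subunits, followed another course. Its level was 235, 217 and 223 CPM in WT 0 h and 199.8, 199 and 204 CPM in KO 0 h, with no overlap. After culture it was 252, 185 and 221 CPM in WT and 238, 256 and 277 CPM in KO, where the genotypes overlapped through WT 4 h replicate 1. Npm1 rose in KO by 0.36 ± 0.08 (edgeR adjusted p = 0.00242), while the WT value was -0.04 ± 0.08 (95% interval -0.20 to 0.13). The difference between these changes was -0.39 ± 0.11 (edgeR adjusted p = 0.0415). WT over KO was 0.16 ± 0.05 at 0 h (edgeR adjusted p = 0.209) and -0.23 ± 0.09 at 4 h (edgeR adjusted p = 0.133), of opposite sign and neither called. Npm1 has 4 annotated pseudogenes that match it over at least 200 bases at 95% identity. Of the other 3 genes of this group, Mybbp1a, which codes for a MYB-binding nucleolar protein, was raised in WT by 0.21 ± 0.07 (lost without WT 0 h replicate 2 or WT 4 h replicate 1 and in a fit of the WT libraries alone), and the values of Nolc1 and Gnl3 lay between 0.08 and 0.24 in the 2 culture contrasts with no call.

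RNA polymerase I makes the ribosomal RNA precursor. Polr1a and Polr1b encode its 2 largest subunits and Polr1c a subunit shared with RNA polymerase III. Polr1b was at 24.3, 23.7 and 23.7 CPM in WT 0 h, 24.0, 22.5 and 24.4 CPM in KO 0 h, 33.4, 28.6 and 33.1 CPM in WT 4 h and 30.0, 27.3 and 31.3 CPM in KO 4 h. All 6 cultured libraries were above all 6 uncultured ones. Its culture change was 0.41 ± 0.10 in WT (edgeR adjusted p = 0.00357) and 0.32 ± 0.11 in KO (edgeR adjusted p = 0.0324). The KO call was lost with DESeq2 and without any of KO 0 h replicates 1, 2 and 3 and KO 4 h replicates 1 and 3. Polr1a rose in WT by 0.32 ± 0.09 (edgeR adjusted p = 0.00891) but not past the threshold in KO (0.23 ± 0.09, edgeR adjusted p = 0.0768), and the interaction was 0.09 ± 0.13 (95% interval -0.18 to 0.35). Polr1c had 0.13 ± 0.10 in WT and 0.03 ± 0.10 in KO, neither called. Genotype differences of the 3 subunits lay between -0.03 and 0.04 at 0 h and between 0.07 and 0.14 at 4 h, with no call.

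The snoRNP proteins fall into the box C/D class, which methylates ribosomal RNA (the methyltransferase Fbl with Nop56 and Nop58), and the box H/ACA class, which converts uridine to pseudouridine (the enzyme Dkc1 with Gar1 and Nhp2). Nop58 (chromosome 1, 59684971 to 59719044, plus strand) was at 119, 120.4 and 133 CPM in WT 0 h and 111, 95.9 and 113 CPM in WT 4 h. In KO it was at 104, 108 and 97.0 CPM at 0 h and 111, 112 and 127 CPM at 4 h. The times did not overlap in either genotype, and they were ordered oppositely. Nop58 fell in WT by 0.21 ± 0.08 on the log2 scale (edgeR adjusted p = 0.0364), the KO value was 0.18 ± 0.08 (edgeR adjusted p = 0.103), and the difference was -0.39 ± 0.11 (edgeR adjusted p = 0.032). The fall in WT was not called with library totals in place of TMM scaling, without WT 0 h replicate 3, without WT 4 h replicate 2 or in a fit of the WT libraries alone. At 0 h every WT library was above every KO library (0.26 ± 0.07, edgeR adjusted p = 0.0886), and at 4 h they overlapped (-0.12 ± 0.08, edgeR adjusted p = 0.383).

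Nop56, the partner of Nop58 in the box C/D particle, went the other way in WT. It rose by 0.24 ± 0.08 (edgeR adjusted p = 0.0273), from 59.8, 64.3 and 58.9 CPM to 65.7, 75.7 and 73.6 CPM with no overlap, and its KO value was 0.00 ± 0.08 (95% interval -0.16 to 0.17). KO libraries averaged 69.3 ± 5.40 CPM at 0 h and 69.6 ± 3.92 CPM at 4 h (SD, n = 3). The interaction of 0.23 ± 0.11 missed the threshold (edgeR adjusted p = 0.298). The WT call was lost without any of WT 0 h replicates 1 and 3 and WT 4 h replicates 2 and 3, and in a fit of the WT libraries alone. The gene bodies of Nop56 and Nop58 hold 5 and 4 annotated snoRNA genes, and those of Ncl and Gnl3 hold 3 each. Fbl, fibrillarin (chromosome 7, 28169710 to 28179269, plus strand), was counted at only 31 to 70 reads per library. It was at 6.53, 4.37 and 5.09 CPM in WT 0 h, 5.56, 5.18 and 5.504 CPM in KO 0 h, 7.10, 4.85 and 7.38 CPM in WT 4 h and 5.80, 7.89 and 5.71 CPM in KO 4 h. These levels overlapped between WT times and between genotypes at each time, whereas every KO 4 h library was above every KO 0 h library. Its culture change was 0.29 ± 0.23 in WT and 0.26 ± 0.24 in KO, and the 95% interval in WT (-0.20 to 0.77) includes both no change and a rise as large as that of any other member but Odc1. Fbl also has an annotated pseudogene with a long near-identical stretch, so its count is uncertain.

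Dkc1, dyskerin, was raised in both genotypes, by 0.26 ± 0.08 in WT (edgeR adjusted p = 0.0128) and 0.32 ± 0.08 in KO (edgeR adjusted p = 0.004). It went from 97.4 ± 3.34 to 116 ± 8.13 CPM in WT and from 99.0 ± 12.1 to 124 ± 2.66 CPM in KO (mean ± SD, n = 3), with no overlap of times. The WT calls of Dkc1 and Polr1a were lost without WT 4 h replicate 1, and without WT 0 h replicate 2 (Dkc1) or 1 (Polr1a). Gar1 was the only member called between genotypes at 4 h, at 71.8, 70.1 and 69.4 CPM in WT and 54.5, 61.9 and 60.5 CPM in KO. WT libraries were all higher, by 0.25 ± 0.08 (edgeR adjusted p = 0.044). This call stands at the edge of the threshold. It held in 2 of 13 alternative settings, was lost without any of the 6 libraries, and ranged from 0.20 to 0.29 with an edgeR or DESeq2 adjusted p of up to 0.205. At 0 h Gar1 had 0.16 ± 0.09 (edgeR adjusted p = 0.489). Nhp2 had 0.26 ± 0.10 in WT and 0.23 ± 0.11 in KO, with times that did not overlap in either genotype and no call.

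Of the 10 small subunit factors 3 rose in WT (Heatr1, Ltv1 and Utp20) and 1 in KO (Utp20). Heatr1, a large scaffold of the early precursor that also acts in RNA polymerase I transcription, was at 151, 133 and 135 CPM in WT 0 h, 157, 144 and 160.2 CPM in KO 0 h, 181, 181 and 185 CPM in WT 4 h and 169, 177 and 159 CPM in KO 4 h. The 3 WT 4 h libraries were nearly equal and above all others. It rose by 0.38 ± 0.06 in WT (edgeR adjusted p = 7.05e-05), the KO value was 0.13 ± 0.06 (edgeR adjusted p = 0.15), and the interaction of 0.25 ± 0.09 missed the threshold (edgeR adjusted p = 0.119). Utp20, another large scaffold protein, was at 103, 93.4 and 105 CPM in WT 0 h, 104, 100.3 and 106 CPM in KO 0 h, 127, 106 and 121 CPM in WT 4 h and 129, 135 and 130.2 CPM in KO 4 h. The KO 4 h libraries were the highest, and the rise was 0.34 ± 0.07 in KO (edgeR adjusted p = 0.000995) and 0.23 ± 0.07 in WT (edgeR adjusted p = 0.015). Ltv1, a factor of small subunit export, rose in WT by 0.24 ± 0.08 and had 0.18 ± 0.08 in KO. The WT call of Ltv1 was lost with DESeq2, without any of WT 0 h replicates 2 and 3 and WT 4 h replicates 2 and 3, and in a fit of the WT libraries alone, and that of Utp20 in the same fit and on leaving out replicate 2 of WT 0 h or replicate 1 or 3 of WT 4 h. The other 7, Rrp9, Rrp12, Wdr43, Nop14, Noc4l, Tsr1 and Bysl, had culture values between -0.21 (Bysl, WT) and 0.19 with no call. Wdr43 was lower in every WT 0 h library than in every KO 0 h library (138, 140.3 and 136 against 159, 144 and 166 CPM), at -0.19 ± 0.06 with an edgeR adjusted p of 0.178.

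Of the 9 large subunit factors Pes1 and Wdr12 rose and Rrs1 fell in WT, and none was called in KO by edgeR or DESeq2, where 2 had an unadjusted edgeR p under 0.05 and Wdr12 and Grwd1 each passed in 2 of 13 alternative settings. Pes1, Wdr12 and Bop1 encode the PeBoW complex, which is needed to mature the large subunit RNA. Pes1 was at 36.6, 43.5 and 51.4 CPM in WT 0 h, 40.7, 45.3 and 46.6 CPM in KO 0 h, 57.0, 57.9 and 58.7 CPM in WT 4 h and 50.4, 49.2 and 49.6 CPM in KO 4 h. The WT 4 h libraries were above all others, and the WT 0 h libraries were the most spread. Its rise was 0.40 ± 0.10 in WT (edgeR adjusted p = 0.00343), against 0.17 ± 0.10 in KO (edgeR adjusted p = 0.242), with an interaction of 0.22 ± 0.14 (95% interval -0.07 to 0.52). Wdr12 rose in WT by 0.37 ± 0.11 (edgeR adjusted p = 0.0114), from 31.4, 30.3 and 24.0 to 36.5, 38.0 and 35.8 CPM without overlap, and had 0.28 ± 0.11 in KO. The call was lost without WT 0 h replicate 3. Bop1, the third PeBoW gene, had 0.04 ± 0.10 in WT and -0.10 ± 0.10 in KO, with overlapping libraries.

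Rrs1, a factor of early large subunit assembly, was at 25.1, 22.6 and 32.1 CPM in WT 0 h, 25.7, 22.5 and 25.7 CPM in KO 0 h, 17.3, 16.7 and 25.0 CPM in WT 4 h and 22.9, 25.8 and 24.7 CPM in KO 4 h. The WT times overlapped, since WT 4 h replicate 3 was above WT 0 h replicate 2. It fell in WT by 0.42 ± 0.15 on the log2 scale (edgeR adjusted p = 0.0365) and had -0.01 ± 0.15 in KO, and the interaction of -0.41 ± 0.21 missed the threshold (edgeR adjusted p = 0.337). The fall was not called with library totals only, without WT 0 h replicate 3, without WT 4 h replicate 1 or 2, or in a fit of the WT libraries alone. The other 5, Nop2, Nop16, Ppan, Grwd1 and Noc2l, had culture values between -0.11 and 0.37 (Grwd1 in KO, 15.04, 13.5 and 16.9 against 19.6, 22.2 and 16.9 CPM, edgeR adjusted p = 0.0791), with no call.

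The ribosomal RNA row was compared with the genes that process it. Rn45s collects reads of the ribosomal RNA precursor transcript, which also contains the mature ribosomal RNA sequences, so precursor and mature RNA cannot be told apart and the share depends on how well ribosomal RNA was avoided in library preparation. It took 11.3%, 10.7% and 9.94% of the counts in WT 0 h, 9.64%, 10.3% and 9.23% in KO 0 h, 11.2%, 7.78% and 8.29% in WT 4 h, and 6.65%, 7.59% and 7.25% in KO 4 h. Cultured libraries were lower except WT 4 h replicate 1, which was as high as the WT 0 h libraries. Rn45s fell in KO by 0.53 ± 0.10 on the log2 scale (edgeR adjusted p = 0.000358) and in WT by 0.33 ± 0.10 (edgeR adjusted p = 0.0123). Without WT 4 h replicate 1 the WT value was -0.54, and the WT call was lost with DESeq2 and on leaving out WT 0 h replicate 1 or replicate 2 or 3 of WT 4 h. WT over KO was 0.16 ± 0.04 at 0 h (edgeR adjusted p = 0.0946) and 0.37 ± 0.11 at 4 h (edgeR adjusted p = 0.0501), and the latter was 0.16 without WT 4 h replicate 1. Of 12 alternative settings 3 called the difference at 0 h and 6 called it at 4 h. The row thus went down where the summed messenger RNA of the members went up, and WT 4 h replicate 1 was the highest of the cultured libraries in both.

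**Figure D4:**
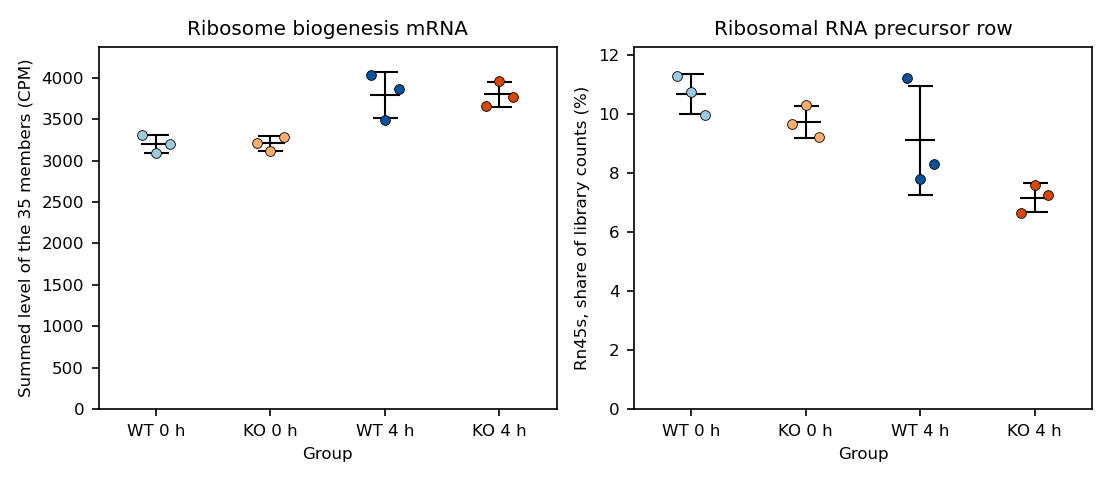
Summed CPM of the 35 members (left) and the share of library counts in the Rn45s row in percent (right) for each library (points), with mean and SD of each group of 3. The member sum is higher in all 6 cultured libraries, and the Rn45s share is lower in all of them but WT 4 h replicate 1.

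Genes that work beside the members were counted in 8 lists of 214 further genes, of which 206 were tested (205 at 4 h). Culture called 57 of them in WT (27.7%, 39 raised and 18 lowered) and 34 in KO (16.5%, 23 raised and 11 lowered), both below the shares of all genes given above. Median log2 fold changes were 0.09 in WT and 0.07 in KO. Genotype called 1 at 0 h (0.485%, against 0.987% of all genes) and 10 at 4 h (4.88%, against 10.9%), and the interaction 4 (1.94%, against 6.39%). The counts by list below compare with 15.1% of all genes raised and 18% lowered by culture in WT, and 10.3% and 13% in KO.

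MYC acts as a dimer with MAX, and the MXD-type repressors compete with it for MAX. Of 14 tested partners and antagonists 3 rose and 4 fell in WT, and 2 rose and 2 fell in KO. Max itself fell, with log2 fold changes of -0.42 ± 0.08 in WT and -0.38 ± 0.08 in KO, as did Mlx (-0.55 ± 0.11 and -0.46 ± 0.11). Mxi1, which encodes a MAX-binding repressor, rose by 1.07 ± 0.14 in WT and 0.78 ± 0.15 in KO and was higher in WT at 4 h by 0.58 ± 0.09 (edgeR adjusted p = 0.000483). Pim1, a kinase gene of cytokine and cAMP responses, rose by 1.00 ± 0.14 and 0.54 ± 0.14. Mlxip rose in WT, by 0.37 ± 0.06, and its interaction was 0.37 ± 0.09 (edgeR adjusted p = 0.0126). Of 38 genes of metabolism and translation linked to MYC, 11 rose and 4 fell in WT, and 3 rose and 5 fell in KO. Slc7a5, the large neutral amino acid transporter, rose by 1.14 ± 0.16 in WT and 1.03 ± 0.16 in KO, and the mitochondrial one-carbon gene Shmt2 by 0.61 ± 0.09 and 0.45 ± 0.09. Ccnd2, cyclin D2, fell in both, at -0.79 ± 0.12 and -1.34 ± 0.12. Tfrc, the transferrin receptor, rose in WT by 0.51 ± 0.09 with an interaction of 0.60 ± 0.12 (edgeR adjusted p = 0.00347) and was higher in WT at 4 h by 0.38 ± 0.08 (edgeR adjusted p = 0.0075).

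Among 17 further genes of the RNA polymerase I machinery 1 rose and 3 fell in WT, and 1 rose and 2 fell in KO. Ubtf, the upstream binding factor that opens ribosomal DNA, fell, with values of -0.49 ± 0.08 in WT and -0.50 ± 0.08 in KO, as did Polr1d (-0.25 ± 0.07 and -0.35 ± 0.07), so these moved opposite to Polr1b. Polr2e, a subunit common to the 3 nuclear polymerases, rose by 0.43 ± 0.08 and 0.52 ± 0.08. In the small subunit processome 7 of 43 rose and 2 fell in WT, and 6 rose in KO, led by Wdr46 (0.53 ± 0.09 in WT and 0.39 ± 0.09 in KO) and Ddx10 (0.36 ± 0.07 and 0.29 ± 0.07). In large subunit assembly 14 of 51 rose and 2 fell in WT, and 6 rose and 1 fell in KO. Mdn1, the giant ATPase that strips assembly factors from the large subunit, rose by 0.68 ± 0.05 in WT (edgeR adjusted p = 9.15e-10) and 0.46 ± 0.05 in KO (edgeR adjusted p = 7.28e-07), and Las1l, a precursor-cleaving nuclease, by 0.42 ± 0.08 and 0.31 ± 0.08. Surf6 fell in both (-0.39 ± 0.10 and -0.41 ± 0.10). In snoRNP assembly 2 of 20 rose in WT (Nol10 and Nufip1), and 1 rose (Nol8) and 1 fell (Tcof1) in KO. Nol10 held in 13, Nufip1 in 11, Nol8 in 8 and Tcof1 in 7 of 13 alternative settings. In the exosome and nuclease list 0 of 14 passed in WT with edgeR, 2 had an unadjusted p under 0.05, up to 5 passed in the alternative settings, and 3 rose in KO, with Xrn2 at 0.31 ± 0.07. Counts in these lists depended on the setting. In WT the calls of the small subunit processome ran from 5 (without WT 4 h replicate 3) to 23 (library totals only) and those of large subunit assembly from 9 to 26 in the same settings, and in KO they ran from 2 (without KO 0 h replicate 2 or KO 4 h replicate 3) to 10 and from 4 (without any KO library but KO 0 h replicate 3) to 16, both highest with library totals only. The KO calls ran from 0 to 5 in snoRNP assembly and from 1 to 4 in the exosome list, and WT calls of the metabolism list were 9 without WT 0 h replicate 2.

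Host genes of snoRNAs, whose exons are mostly noncoding, gave 9 tested genes, of which 1 rose and 3 fell in WT and 1 rose in KO. Gas5 fell in WT by 0.21 ± 0.06 and rose in KO by 0.21 ± 0.06, and the interaction was -0.42 ± 0.09 (edgeR adjusted p = 0.00325). At 4 h it was lower in WT by 0.37 ± 0.07 (edgeR adjusted p = 0.00256), from 709 ± 71.6 CPM in WT and 915 ± 32.4 CPM in KO (mean ± SD, n = 3). Its interaction has the sign of those of Nop58 and Npm1. Snhg1 was the only gene of the 8 lists called at 0 h (-0.27 ± 0.06, edgeR adjusted p = 0.0457), and it held in 6 of 13 alternative settings. The call of Gas5 in WT was lost with library totals only and without WT 4 h replicate 1, and that in KO without any of KO 0 h replicates 1 and 3 and KO 4 h replicates 2 and 3, whereas its interaction held in all 18 alternative settings.

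Read counting limits some of these values. By sequence, 9 of the 35 members have another annotated gene that matches at least 200 bases at 95% identity, 6 of them with a pseudogene: Odc1, Npm1, Fbl, Nop56, Wdr12 and Pes1. The rest, Tsr1, Noc2l and Bysl, match only Srr, Samd11 and Ccnd3. Their exons overlap those of the same genes on the opposite strand by 1240, 598 and 361 bases. These matches are thus no sign of copies elsewhere. The strand setting of the counts was not stated, so reads of either gene cannot be told apart there.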

How the data were processed

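The authors amplified total RNA with the NuGEN Ovation RNA-seq System V2, made libraries with KAPA Hyper prep and NEXTflex adapters, sequenced them single-end on a HiSeq2500, aligned reads to mm10 with STAR and counted them with HTSeq. Tool versions, annotation and strand setting are not given in the sources used here. They deposited raw counts per gene, in a table for 0 h (13269 genes) and another for 4 h (13142 genes), each with no row sum under 10.

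Counts were filtered with filterByExpr, scaled by TMM and tested with edgeR 4.0.16 (glmQLFit and glmQLFTest, R 4.3.3) with Benjamini-Hochberg adjustment over all genes tested. Genotype (WT over KO) was tested in the 6 libraries of a time, and culture (4 h over 0 h) and the interaction in 1 fit of 12 libraries over shared genes. That fit had no term for the mouse. All 35 members passed each filter. Log2 fold changes carry ± 1 standard error, intervals are 95% intervals of the same model, and CPM levels are on TMM-scaled sizes (log2 with prior count 2). The 3 libraries of a group came from 3 mice, and a permutation of 3 against 3 cannot go below 0.1, so the p-values rest on the count model. Replicates differed by 1.95 to 9.32 chi-square units per degree of freedom, above sampling noise. Molecular identifiers were not used. Scripts were tested on simulated data. DESeq2 1.42.0, other scalings and filters, left-out libraries and a replicate block were alternatives. Gene models are from GENCODE and promoters from RefSeq, and near copies were found with blastn 2.17.0.

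The members and lists were chosen with earlier results of these data known. The text gives Myc, Odc1, Ncl, Npm1 and Fbl in every library, then the called members with the largest log2 fold changes (up to 4 in each direction of a contrast), the other members by values where their role is described, and up to 3 called genes of smallest p per direction from the lists. Wdr43, Nop56, Gas5 and others given with further values were picked after their values were seen.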

Additional observations from a re-analysis of the deposited data

Results flagged for a closer look

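In 3 members the culture change itself differed between genotypes by edgeR's interaction test (8.57%, against 6.39% of all genes). For Odc1 the WT change exceeded the KO change by 0.64 ± 0.18 (edgeR adjusted p = 0.0377), for Npm1 the WT change was lower, at -0.39 ± 0.11 (edgeR adjusted p = 0.0415), and for Nop58 it was also lower, at -0.39 ± 0.11 (edgeR adjusted p = 0.032). All 3 adjusted p-values are close to the threshold. The calls held in 10 (Odc1), 8 (Npm1) and 13 (Nop58) of 18 alternative settings, and all 3 kept their sign in each of them.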

How the results depend on the processing

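None of the members' log2 fold changes that were called reversed under any alternative. DESeq2 size factors in edgeR and leaving out Rn45s kept every count of called members. At 4 h the count of 1 fell to 0 with library totals only, without a filter on low counts, with DESeq2, with the replicate number as replicate block and in the fit of all 12 libraries, and was 0 to 1 with single libraries left out. In 2 of these fits the called member was another one and was higher in KO (Npm1 without WT 4 h replicate 1, Rrs1 without WT 4 h replicate 3). At 0 h the count was 0 to 1 (1, Odc1, without WT 0 h replicate 1). In WT culture it was 8 in a fit of only the 2 groups and 9 to 15 with single libraries left out (9 for WT 0 h replicate 3 and for WT 4 h replicate 1), and Odc1, Ncl, Polr1b, Heatr1 and Pes1 were called in all 13 settings. In KO culture it was 14 with library totals only, 10 in a fit of only the 2 groups (30.2% of all genes, against 27.2% in the WT fit) and 6 to 7 with single libraries left out. For the interaction it was 0 to 3, with 0 without WT 0 h replicate 3, KO 0 h replicate 1, KO 0 h replicate 3 or KO 4 h replicate 3. It was 1 on leaving out WT 0 h replicate 2, KO 0 h replicate 2, WT 4 h replicate 2 or WT 4 h replicate 3. Library totals only moved the mean log2 CPM of the members to 5.60 in WT 0 h and 5.92 in KO 4 h. Over all genes, the 112 calls at 0 h became 26 to 161 and the 1212 at 4 h became 776 to 1361 with single libraries left out. The cause of these shifts was not tested.

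Same-numbered libraries of a genotype at 0 h and 4 h correlated in their deviations at -0.04 to 0.15, above 0.1 in 4 of 6 pairs and best with their own number in 5 of 6. Between genotypes at a time the values were -0.10 to 0.07, above 0.1 in 0 of 6 and best in 2 of 6. Not every pair passed 0.1, and the labels do not say whether a number marks the same mouse at both times. Each genotype had as many mice as libraries at each time, so its uncultured and cultured libraries appear to share mice. The main culture and interaction fit did not use this and treated all libraries as independent. For culture and the interaction, the replicate block is the fit that pairs same-numbered libraries of a genotype. For the genotype contrasts it instead pairs WT and KO libraries by number, which come from different mice with no stated link. The replicate block gave 0 calls at 0 h, 0 at 4 h, 16 in WT culture, 7 in KO culture and 3 for the interaction. WT over KO of Rn45s passed with this pairing by number (edgeR adjusted p = 0.00115 at 0 h and 0.0498 at 4 h), and the labels give no reason for such pairs. Depth limits Fbl, Grwd1 and Rrp9 most, with under 200 reads in every library.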

Other observations

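Some genes of germinal centre B cells had higher means in KO than in WT before culture. Mybl1 averaged 21.6 CPM in WT 0 h and 45.2 CPM in KO 0 h, S1pr2 5.85 and 14.2 CPM, and Fas 8.11 and 11.05 CPM, and all 3 were lower at 4 h than at 0 h in both genotypes by mean. Bcl6, the germinal centre transcription factor, averaged 226.6 CPM in WT 0 h and 210.1 CPM in KO 0 h. How these values bear on the members was not tested.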
